A study of Solanum lycopersicum with 9 samples.

Results

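Leaves of tomato that lack the chromatin remodeller DDM1 were compared with wild-type (WT) leaves to follow the WT H3K9me2 peaks at which *ddm1* carried new H3K27me3 and neither H3K9ac nor H3K9me2. A WT H3K9me2 peak on the 12 numbered chromosomes was taken when it shared at least 1 bp with a *ddm1* H3K27me3 peak of replicate 1 or 2 that had no bp in a WT H3K27me3 peak, called a gained peak below, and no bp with any *ddm1* H3K9ac or *ddm1* H3K9me2 peak. This held for 811 of 9767 WT H3K9me2 peaks (8.30%, 95% Wilson interval 7.77 to 8.87). The count, and the overlaps that chose the peaks, are given as a description. At these 811 peaks, H3K27me1, which had no part in the choice, was called more often in WT and less often in *ddm1* than at lost WT H3K9me2 peaks with neither H3K27me3 nor H3K9ac in *ddm1*. The *ddm1* contrast was not resolved at the 132 peaks that replicate 1 touched, nor at peaks of 1500 bp or more, and it was not particular to the set.

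Transposable elements are held silent in constitutive heterochromatin, which carries H3K9me2 and H3K27me1. In plants, H3K9me2 is written by SUVH-type histone methyltransferases such as KRYPTONITE, and it is bound to DNA methylation by a loop in which each mark recruits the enzyme of the other. H3K27me3 is written by Polycomb repressive complex 2 and marks facultative heterochromatin, mostly at silent genes. DDM1 remodels nucleosomes so that methyltransferases can reach the DNA of transposable elements. Acetylation of H3K9 accompanies transcribed chromatin.

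Plants of cultivar M82 were sampled at the fourth leaf, at an age of 1 month, and were either WT or the *Slddm1a/Slddm1b* double mutant (*ddm1*), which carries loss of both tomato DDM1 genes. Chromatin immunoprecipitation followed by sequencing gave 1 peak list for each genotype for H3K9me2, H3K27me1 and H3K9ac, 1 WT list for H3K27me3 and 2 *ddm1* lists for H3K27me3, 9 libraries in all. Further replicates of the other marks were not analysed here, and whether lists pool plants or replicates was not given in the sources used here. The libraries were made from whole leaves, so a mark present in fewer cells and a weaker mark in every cell cannot be told apart. The lists carry no gene names, so the leaf identity of the samples was not checked.

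The lists differed in extent. WT H3K9me2 had 9767 peaks over 10.9 Mb and *ddm1* H3K9me2 had 7361 peaks over 6.48 Mb. The *ddm1* H3K27me3 lists covered 23.6 Mb in replicate 1 and 128 Mb in replicate 2, against 42.8 Mb in WT, and only replicate 2 held peaks over 10 kb (2553 peaks). Replicate 2 is labelled as *ddm1*, but its file and its peaks carry a WT name, so the main results are also given for the 132 peaks that replicate 1 touched. Apart from *ddm1* H3K27me3 each group was 1 library. No test over plants was possible, and all intervals cover counting error only and treat peaks as independent.

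The first question was how the gain of H3K27me3 at WT H3K9me2 peaks divided by what else *ddm1* carried there. Gained peaks of replicate 1 touched 214 WT H3K9me2 peaks (2.19% of all) and those of replicate 2 touched 1279 (13.1%), 1335 different peaks together. Of these 1335 peaks, 462 (34.6%, 32.1 to 37.2) also had *ddm1* H3K9ac, 67 (5.02%, 3.97 to 6.32) still had *ddm1* H3K9me2, and 5 had both. The other 811 (60.7%, 58.1 to 63.3) had neither of these marks. They are said below to have gained only H3K27me3, with H3K27me1 left aside. For comparison, 5850 of all 9767 WT H3K9me2 peaks (59.9%) had none of H3K27me3, H3K9ac and H3K9me2 called in *ddm1*. They are called lost without replacement, with H3K27me1 again left aside. Another 1456 (14.9%) carried *ddm1* H3K9ac without H3K9me2, and 1540 (15.8%) kept H3K9me2. A further 110 peaks, not analysed in depth, were touched only by *ddm1* H3K27me3 peaks that reached into a WT H3K27me3 peak. None of the 811 peaks had a bp in a WT H3K27me3 or WT H3K9ac peak. Over all 9767 WT H3K9me2 peaks, 0 had a bp in a WT H3K9ac peak and 18 in a WT H3K27me3 peak. The absence was therefore not particular to the set.

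The replicates contributed very unequally. Replicate 2 alone gave 679 of the 811 peaks (83.7%), replicate 1 alone gave 39 (4.81%), and both gave 93 (11.5%). Where a replicate touched a peak, the mean share of the peak covered by gained H3K27me3 was 43.0% in replicate 1 (132 peaks) and 72.2% in replicate 2 (772 peaks). The mean of these values, which come from different peaks, was 57.6% ± 20.7 (SD, n = 2). The medians were 34.9% (quartiles 20.8 to 60.8) and 92.0% (42.3 to 100). Replicate 1 thus mostly marked a stretch of the former H3K9me2 peak, whereas replicate 2 mostly marked nearly all of it. The covered length over all touched peaks was 59.2 kb in replicate 1 and 564 kb in replicate 2. Over all 811 peaks, touched or not, the mean covered share was 7.00% in replicate 1 and 68.7% in replicate 2. The mean of these was 37.9% ± 43.7 (SD, n = 2).

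**Figure D1:**
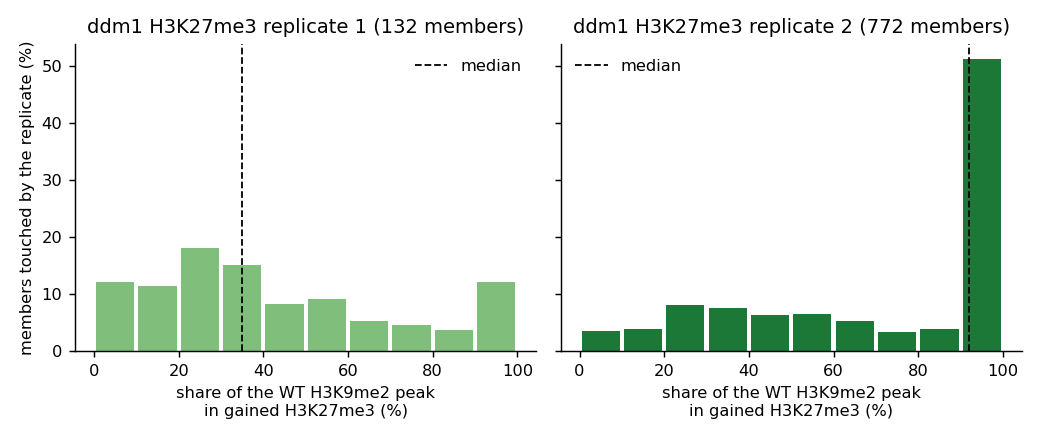
Share of each WT H3K9me2 peak covered by gained *ddm1* H3K27me3 (x axis, percent, in steps of 10), as percent of the peaks that each replicate touched (y axis). The dashed line is the median, 34.9% in replicate 1 and 92.0% in replicate 2, and 51.3% of the peaks touched by replicate 2 fall in the highest step against 12.1% for replicate 1.

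The placement of the mark followed the same difference. In replicate 1, gained H3K27me3 entered 77 of 132 peaks from one edge only (58.3%), lay inside without reaching an edge in 42 (31.8%), and covered 12 in full (9.09%). In replicate 2 it covered 359 of 772 peaks in full (46.5%), entered 273 from one edge (35.4%) and lay inside 108 (14.0%). At the 93 peaks called in both replicates, the mean covered share was 45.7% in replicate 1 and 75.9% in replicate 2. Replicate 2 covered more of the peak at 62 of them, replicate 1 covered more at 21, and both covered all of it at 10. Inside these 93 peaks, 38200 of the 44964 bp gained in replicate 1 were also gained in replicate 2 (85.0%).

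Each replicate was then read at peaks chosen in the other. Of the 132 WT H3K9me2 peaks chosen by the rule in replicate 1 alone, 97 (73.5%, 65.4 to 80.3) were touched by an H3K27me3 peak of replicate 2. Among the 6639 peaks that likewise had no *ddm1* H3K9ac or H3K9me2 but no gain in replicate 1, 788 (11.9%, 11.1 to 12.7) were touched, a difference of 61.6 percentage points (95% Newcombe interval 53.5 to 68.4). Over all WT H3K9me2 peaks the share was 15.0%. In the reverse direction, replicate 1 touched 93 of the 772 peaks chosen in replicate 2 (95% interval 9.94 to 14.5%) and 40 of 5999 others (0.667%, 0.490 to 0.907), against 2.24% of all WT H3K9me2 peaks, a difference of 11.4 points (9.26 to 13.9). Peaks chosen in one replicate were therefore touched in the other more often than the rest, in both directions. Near misses were frequent: of the 679 peaks called only in replicate 2, 85 (12.5%, 10.2 to 15.2) had a gained replicate 1 peak within 1 kb and 377 (55.5%, 51.8 to 59.2) within 5 kb. At peaks lost without replacement the shares were 0.632% and 11.2%, and the difference within 5 kb was 44.3 points (40.5 to 48.1). Those peaks had been chosen for having no H3K27me3 on them, which lowers their share close by.

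The gained H3K27me3 peaks that touched the set were longer than gained peaks away from WT H3K9me2. In replicate 2 their median width was 1825 bp (quartiles 612 to 7190, 803 peaks), against 781 bp for the 34513 gained peaks that touched no WT H3K9me2 peak. Widths over 10 kb made up 19.8% and 4.49%. The 519 gained peaks that touched only WT H3K9me2 peaks outside the set were longer still, with a median of 2635 bp and 23.9% over 10 kb. In replicate 1 the medians were 556 bp (135 peaks), 426 bp (19065 peaks) and 692 bp (89 peaks) in the same order. A longer peak has more chance to touch another peak, so this is a description. In replicate 2, 178 of the 811 peaks lay in gained peaks over 10 kb. Sharing of one gained peak by several peaks of the set was rare: 26 gained peaks of replicate 2 and none of replicate 1 touched more than 1 of them. The most in one peak was 3, first on chromosome 1 from 56448290 to 56486827 (38538 bp, fold enrichment over the local background 3.73), where all 3 WT H3K9me2 peaks of the domain belonged to the set. The same held on chromosome 11 from 40895852 to 40975703 (79852 bp, fold enrichment 3.36).

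In width and strength the peaks were ordinary WT H3K9me2 peaks. Their median width was 926 bp (quartiles 799 to 1168, range 700 to 3070), close to the 943 bp (799 to 1226) of peaks lost without replacement, and less than the 1109 bp (870 to 1571) of peaks that kept H3K9me2. Their median WT fold enrichment was 2.11 (quartiles 1.98 to 2.26), against 2.10 (1.95 to 2.28) for peaks lost without replacement and 2.05 (1.93 to 2.21) for peaks with *ddm1* H3K9ac, while peaks that kept H3K9me2 had quartiles of 2.09 to 2.51. A q of 0.01 or lower was reached by 27.6% of them, 32.6% of those lost without replacement and 56.4% of those kept. A peak could meet the rule by 1 bp of gained H3K27me3, which favours long peaks. It could fail the rule by 1 bp of *ddm1* H3K9ac or H3K9me2, which works against them. The share of WT H3K9me2 peaks in the set was 9.27% (8.51 to 10.1) below 1000 bp, 7.88% (6.99 to 8.88) from 1000 to under 1500 bp and 5.85% (4.78 to 7.16) at 1500 bp or more. In the same order, 11.9%, 15.6% and 29.1% kept H3K9me2, and 13.1%, 17.8% and 15.2% carried *ddm1* H3K9ac without H3K9me2. The rule left those peaks out, so the fall of the set's share with width is a description. Replicate 1 gave no such order, with shares of 1.34% (1.06 to 1.69), 1.31% (0.970 to 1.78) and 1.46% (0.969 to 2.21).

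The next question was where along the chromosomes these peaks lay. Counting WT H3K9ac peaks in steps of 1 Mb gave a median of 15, and the 409 of 808 windows at or under it are called H3K9ac-poor. They held 577 of the 811 peaks (71.1%, 67.9 to 74.2), compared with 59.3% of all WT H3K9me2 peaks, 61.8% (60.6 to 63.1) of those lost without replacement and 39.5% (37.1 to 42.0) of those kept. They also held 62.3% (59.8 to 64.7) of peaks that gained H3K9ac. For the 110 peaks whose *ddm1* H3K27me3 reached into WT H3K27me3 it was 70.0% (60.9 to 77.8), so the high share was not particular to the set. The difference between the set and peaks lost without replacement was 9.32 points (5.88 to 12.6). It was not resolved in replicate 1, where 64.4% of 132 peaks (55.9 to 72.0) lay in such windows, a difference of 2.56 points (-5.99 to 10.3). The set was not more central than all WT H3K9me2 peaks or those lost without replacement for that. The stretch from 25 to 75% of the chromosome's length held 55.5% of the set (52.0 to 58.9), 58.3% of all WT H3K9me2 peaks and 60.9% (59.7 to 62.2) of those lost without replacement, a difference of -5.44 points (-9.09 to -1.82). For the 132 peaks of replicate 1 it was 56.8%, with an interval (48.3 to 65.0) that included the 60.9%. Peaks that kept H3K9me2 were less central than the set, with 45.6% (difference 9.84 points, 5.59 to 14.0).

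In steps of 10% of the chromosome's length, the share of WT H3K9me2 peaks that gained only H3K27me3 was highest from 10 to 20% (11.6%, 9.94 to 13.5) and from 60 to 70% (11.5%, 9.80 to 13.5). In the 4 steps between these it was from 6.64% to 7.75%, and in the last step it was lowest, with 6 of 238 peaks (2.52%, 1.16 to 5.39). H3K9me2 was kept by 48.7% of the peaks in that last step and by 26.5% in the first. This profile was that of replicate 2. The peaks of the set that replicate 1 touched made up 1.43% of all WT H3K9me2 peaks from 10 to 20% of the length. They made up 1.52% from 60 to 70% and 1.26% in the last step, with intervals that overlapped each other. By chromosome, the share was 12.5% on chromosomes 1 (123 of 986) and 10 (105 of 841) and 4.84% on chromosome 6 (28 of 578), 5.22% on chromosome 2 and 5.31% on chromosome 3, with intervals that did not overlap between these groups. Replicate 1 did not give this ranking: its share was 1.93% (1.24 to 2.99) on chromosome 1 and 15 of 788 (1.16 to 3.12%) on chromosome 11, but 1.19% (0.647 to 2.17) on chromosome 10 and 1.44% (0.731 to 2.81) on chromosome 2. With 5 to 19 peaks on a chromosome, differences among chromosomes were not detectable in replicate 1. The length of all gained H3K27me3, in contrast, had the chromosomes named for the whole set at both ends in both replicates. In replicate 2 it covered 16.7% of chromosome 1 and 15.4% of chromosome 10, but 5.85%, 6.10% and 6.96% of chromosomes 2, 3 and 6. In replicate 1 it covered 1.67% of chromosome 1 and 1.82% of chromosome 10, but 0.870%, 0.981% and 0.888% of chromosomes 2, 3 and 6. The peaks were scattered. They occurred in 388 of the 783 windows that held a WT H3K9me2 peak, 182 windows held a single one, and the most was 10 of 17 WT H3K9me2 peaks, on chromosome 9 from 52000001 to 53000000.

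**Figure D2:**
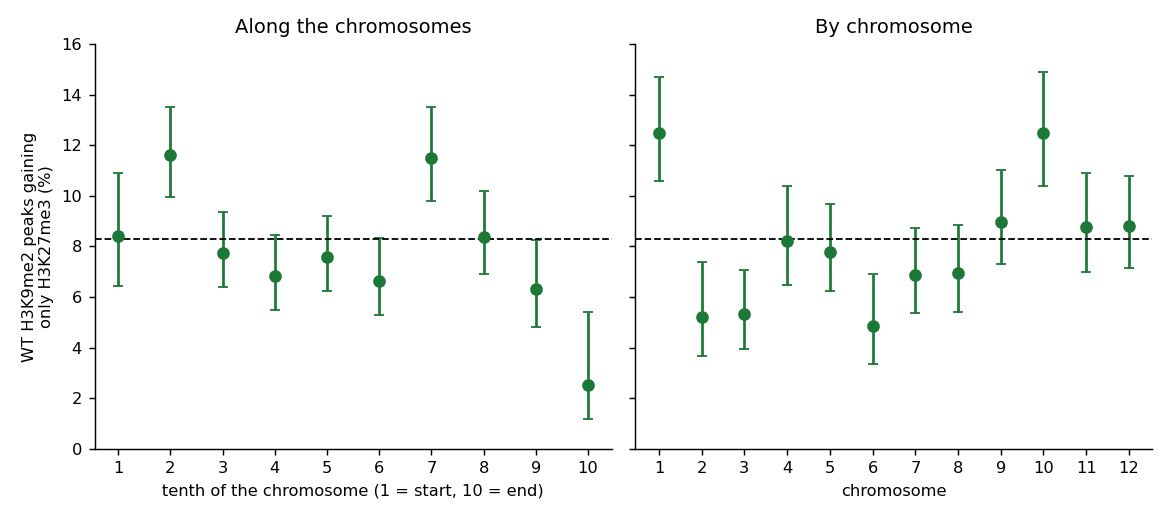
Percent of WT H3K9me2 peaks that gained only H3K27me3 (y axis) by step of 10% of the chromosome's length (left, 1 is the start and 10 the end) and by chromosome (right). Points are shares with 95% Wilson intervals, and the dashed line is the share over all chromosomes, 8.30%. Steps 2 and 7 and chromosomes 1 and 10 lie above the line with their whole interval. Counting only the peaks of the set that replicate 1 touched did not give this ranking.

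The surroundings of the peaks were examined next. WT H3K9ac was farther away than at other lost peaks: the nearest WT H3K9ac peak lay at a median of 72.2 kb, against 41.6 kb for peaks lost without replacement and 10.7 kb for peaks that kept H3K9me2. Within 5 kb, 4.32% of the set and 10.6% of the peaks lost without replacement had WT H3K9ac (difference -6.30 points, -7.75 to -4.50). The rule had set aside the 110 peaks whose *ddm1* H3K27me3 reached into WT H3K27me3. Of these, 18.2% had WT H3K9ac within 5 kb, at a median of 32.7 kb. The distance of the set may thus carry part of the choice, which was not tested. In *ddm1* the order of the set and the peaks lost without replacement was turned around. The nearest *ddm1* H3K9ac peak lay at a median of 4.50 kb from the set and 8.95 kb from peaks lost without replacement, and 53.3% against 29.5% had one within 5 kb (difference 23.8 points, 20.2 to 27.4). The rule asks that *ddm1* H3K9ac be absent on the peak itself, and the same absence holds for the peaks lost without replacement. New H3K9ac, taken as the 44329 of 76513 *ddm1* H3K9ac peaks with no bp in a WT H3K9ac peak, lay within 5 kb of 52.0% of the set (48.6 to 55.5) and 23.5% of peaks lost without replacement (22.4 to 24.6). The nearest remaining *ddm1* H3K9me2 peak lay at a median of 67.3 kb, against 38.8 kb, and within 5 kb of 31 of 811 and 646 of 5850 peaks (difference -7.22 points, -8.61 to -5.48). It lay within 5 kb of 3.71% of peaks with *ddm1* H3K9ac and 3.64% of the 110 peaks whose H3K27me3 reached into WT H3K27me3, against 3.82% of the set. Of those 110 peaks, 50.0% had *ddm1* H3K9ac within 5 kb. Nearness of *ddm1* H3K9ac and distance from *ddm1* H3K9me2 were thus not particular to the set. The 132 peaks of replicate 1 differed from the peaks lost without replacement in the same directions. Their differences within 5 kb were -5.31 points for WT H3K9ac (-8.14 to -0.0182), 36.4 points for new H3K9ac (27.8 to 44.4) and -7.25 points for *ddm1* H3K9me2 (-9.57 to -2.42).

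H3K27me3 of replicate 2 was not limited to the former H3K9me2 peak. The set was chosen for touching H3K27me3 peaks, which reach into the flanks, and the peaks lost without replacement for having none, so the flanks carry the choice too and are given as a description. At 5 kb from the centre, 52.9% of positions lay in a replicate 2 peak, against 8.15% around peaks lost without replacement and 30.2% around peaks with *ddm1* H3K9ac, and at 10 kb it was 47.7% against 10.9% and 28.0%. Replicate 1 covered 6.10% of positions at 5 kb, against 3.03% and 5.60%. WT H3K27me3 covered 4.19% of positions at this distance, against 5.61% and 5.94%.

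**Figure D3:**
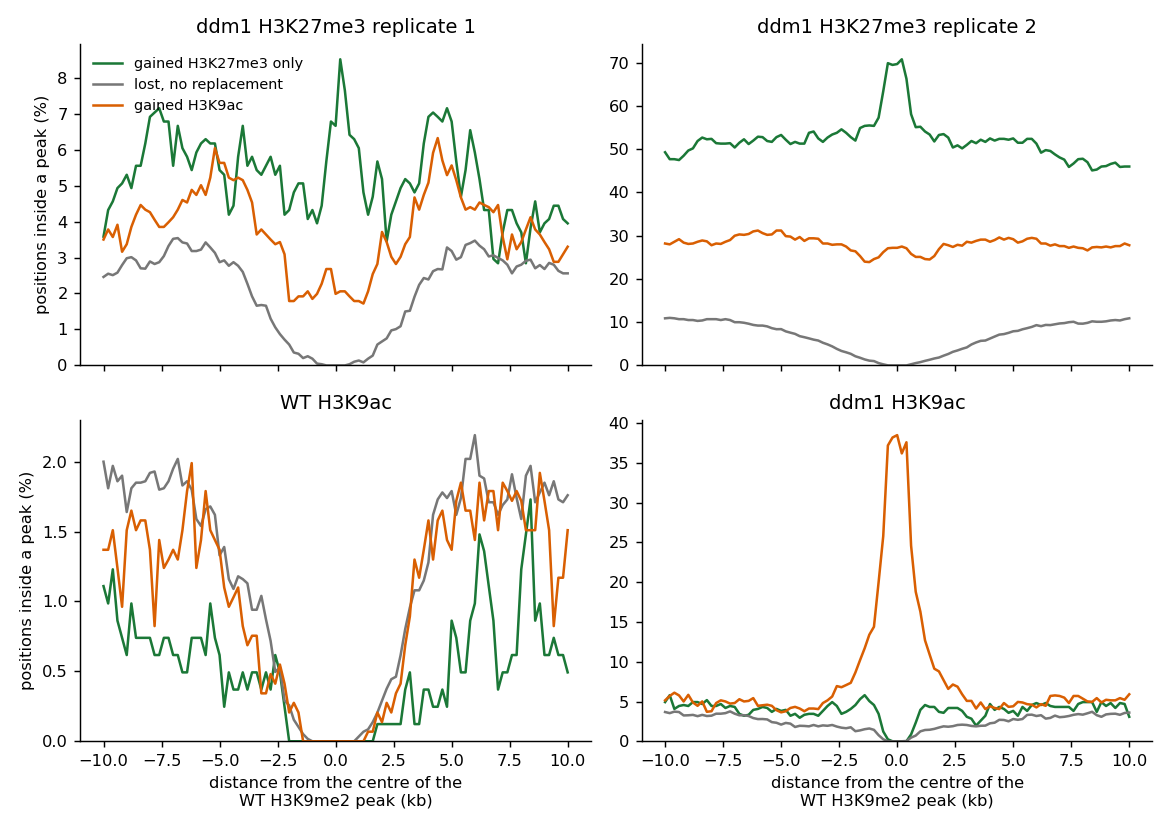
Percent of positions that lay inside a peak (y axis) by distance from the centre of the WT H3K9me2 peak (x axis, kb, in steps of 200 bp), for H3K27me3 in *ddm1* replicates 1 and 2 and for H3K9ac in WT and *ddm1*. Lines are the 811 peaks that gained only H3K27me3, the 5850 lost without replacement and the 1456 that gained H3K9ac, and the y axes differ between panels. Replicate 2 covers 52.9% of positions at 5 kb around the set, and the H3K27me3 curves carry the choice of the peaks at the centre and in the flanks.

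H3K27me1, the constitutive mark that the rule did not use, differed between the set and peaks lost without replacement in both genotypes. In WT, 92 of the 811 peaks (11.3%, 9.34 to 13.7) had an H3K27me1 peak, against 8.30% of all WT H3K9me2 peaks (by coincidence also 811 of 9767) and 385 of 5850 (6.58%, 5.97 to 7.25) of those lost without replacement, a difference of 4.76 points (2.65 to 7.21). In *ddm1*, 50 of the 811 (6.17%, 4.71 to 8.04) had one, against 10.6% of all and 590 of 5850 (10.1%, 9.34 to 10.9) of those lost without replacement, a difference of -3.92 points (-5.58 to -1.91). From WT to *ddm1* the share thus differed by -5.18 points in the set (-7.96 to -2.44) and by 3.50 points (2.51 to 4.51) at peaks lost without replacement. Peaks that gained H3K9ac had 7.62% in WT and 4.88% in *ddm1*, and peaks that kept H3K9me2 had 13.9% and 21.2%. In *ddm1* the set and the peaks with H3K9ac did not differ beyond counting error (difference 1.29 points, -0.618 to 3.41). The 110 peaks whose *ddm1* H3K27me3 reached into WT H3K27me3 had 8.18% in WT and 0 of 110 in *ddm1* (Wilson upper bound 3.37%). A lower share in *ddm1* than in WT was thus not particular to the set.

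The same was seen in length and at the single peaks. H3K27me1 covered 27.9 bp per kb of the set in WT and 13.1 bp per kb in *ddm1*, against 13.6 and 21.2 bp per kb at peaks lost without replacement. Peaks that gained H3K9ac had 15.2 and 9.55 bp per kb, also lower in *ddm1*. Of the 92 peaks with H3K27me1 in WT, 18 (19.6%, 12.7 to 28.8) had it in *ddm1* too and 74 did not, while 32 others had it in *ddm1* only. At peaks lost without replacement the share retained was 31.4%, a difference of -11.9 points (-20.2 to -1.60), and at peaks that kept H3K9me2 it was 60.7% (54.1 to 67.0). At peaks that gained H3K9ac it was 14.4% (9.07 to 22.1), and the set did not differ from them beyond counting error (5.15 points, -5.15 to 15.8). At the 110 peaks whose *ddm1* H3K27me3 reached into WT H3K27me3 it was 0 of 9. Low retention was thus not particular to the set. The nearest *ddm1* H3K27me1 peak lay at a median of 49.7 kb from the set and 22.1 kb from peaks lost without replacement, whereas the WT medians were 32.0 and 35.9 kb. In *ddm1* it was 39.4 kb for peaks that gained H3K9ac and 78.6 kb for those 110 peaks. For the 132 peaks of replicate 1 the medians were 41.4 kb in *ddm1* and 20.6 kb in WT.

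**Figure D4:**
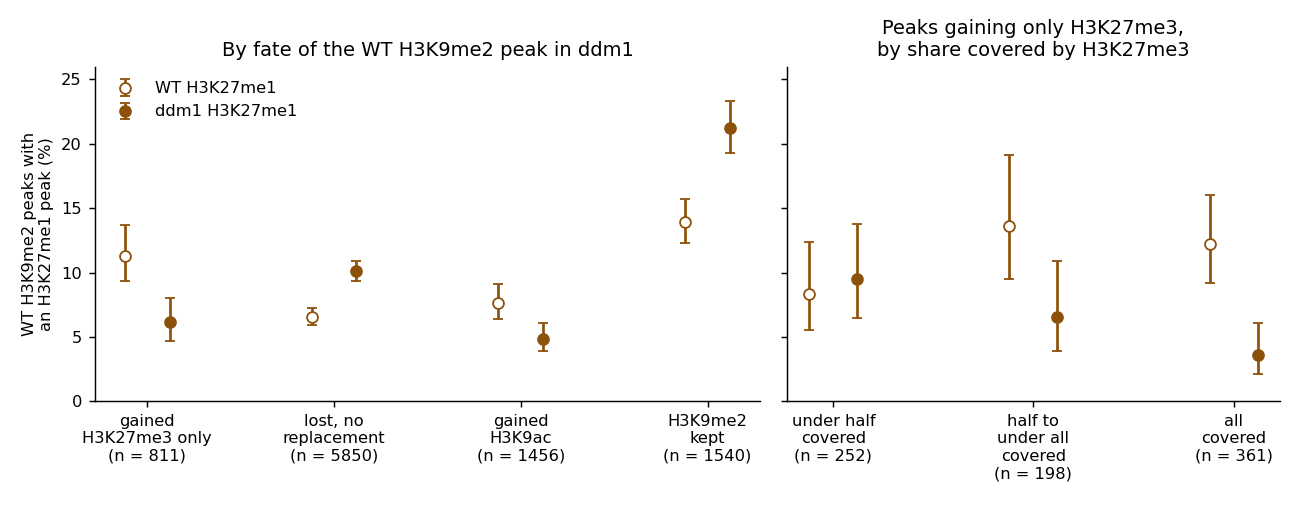
Percent of WT H3K9me2 peaks with an H3K27me1 peak in WT (open) and *ddm1* (filled), with 95% Wilson intervals, by fate of the H3K9me2 peak (left) and, for the 811 peaks that gained only H3K27me3, by the larger share covered in either replicate (right). The set goes from 11.3% to 6.17% and the peaks lost without replacement from 6.58% to 10.1%, and among fully covered peaks the shares are 12.2% and 3.60%.

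Within the set, H3K27me1 was called less often in *ddm1* where H3K27me3 covered more of the peak. Of the 361 peaks covered in full by gained H3K27me3 in at least 1 replicate, 44 (12.2%, 9.21 to 16.0) had H3K27me1 in WT and 13 (3.60%, 2.12 to 6.06) in *ddm1*. Of the 198 covered by 50% or more but not in full, 13.6% had it in WT and 6.57% in *ddm1*. Of the 252 covered by less, 8.33% (5.51 to 12.4) had it in WT and 9.52% (6.48 to 13.8) in *ddm1*. Median widths were 864, 990 and 1002 bp, and width was not held constant here. These classes rest on replicate 2, which covered 359 peaks in full against 12 for replicate 1. At the 46 peaks of which replicate 1 covered 50% or more, 2 had H3K27me1 in *ddm1* (4.35%, 1.20 to 14.5), against 8 of the 86 it covered by less (9.30%, 4.79 to 17.3), with overlapping intervals. Of the 104 WT H3K27me1 peaks inside the set, 85 (81.7%) overlapped a gained H3K27me3 peak themselves, 83 of them in replicate 2 and 14 in replicate 1. Of the 54 *ddm1* H3K27me1 peaks inside it, 37 (68.5%, 55.3 to 79.3) did. Of all bp of the 811 peaks, 66.1% lay in gained peaks of replicate 2 and 6.95% in those of replicate 1. With 1 bp enough to count, these overlaps carry the choice of the set and are given as a description.

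The H3K27me1 contrast was examined by width, location and strength, since short H3K27me1 peaks are met more often by long H3K9me2 peaks. Below 1000 bp, the set had 9.01% in WT and 4.61% in *ddm1* (477 peaks), against 4.90% and 8.44% at peaks lost without replacement. From 1000 to under 1500 bp the values were 12.6% and 4.88%, against 7.79% and 10.9%. At 1500 bp or more (88 peaks) they were 20.5% and 18.2%, against 11.1% and 15.3%, so that the *ddm1* share was not lower than at other lost peaks in this class. In H3K9ac-poor windows the set had 10.7% and 5.03%, against 6.75% and 10.0%, and in the other windows 12.8% and 8.97%, against 6.31% and 10.2%. Among WT H3K9me2 peaks with a q of 0.01 or lower, the set had 21.4% and 12.9%, against 10.3% and 16.1%. By chromosome, the *ddm1* share was below the WT share in the set on 10 of 12 chromosomes (not 7 and 8), and above it at peaks lost without replacement on all 12. With replicate 1 alone as the source of gains (132 peaks), 14.4% (9.41 to 21.4) had H3K27me1 in WT and 7.58% (4.17 to 13.4) in *ddm1*, a difference of -6.82 points whose interval of -14.6 to 0.834 included 0. Against peaks lost without replacement these 132 peaks differed by 7.81 points in WT (2.79 to 14.8), while in *ddm1* the difference of -2.51 points was not resolved (-6.01 to 3.35). The classes of width, window and strength were not divided by replicate. The *ddm1* H3K27me1 list was the longer one (9247 against 6044 peaks). Cut to the 6044 peaks of lowest q, it left 3.70% (2.60 to 5.23) in the set and 6.44% (5.84 to 7.10) at peaks lost without replacement. The set was thus still lower than in WT, while the peaks lost without replacement, at 6.58% in WT, no longer differed beyond counting error.

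Single regions show the range within the set. Coordinates are those of the M82 V1.0 assembly, and genes or transposable elements at these positions were not analysed here. Both replicates covered 50% or more of 30 peaks, and among these the highest WT H3K9me2 fold enrichment, 2.64, was on chromosome 10 from 47645960 to 47647188 (1229 bp). Replicate 1 covered 51.7% and replicate 2 covered 76.4% of this peak, and a WT H3K27me1 peak covered 306 bp of it. On chromosome 5, the peak from 12337643 to 12338531 (889 bp, fold 2.55) was covered in full by both replicates and held 147 bp of WT H3K27me1. The peak on chromosome 1 from 58704456 to 58706198 (1743 bp, fold 2.46) was covered by 54.7% and 93.3% and held 221 bp of WT H3K27me1. On chromosome 8, the peak from 32845002 to 32846097 (1096 bp, fold 2.43) was covered by 100% and 96.5% and held 300 bp of WT H3K27me1. In *ddm1* none of these 4 peaks had H3K27me1.

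The next 4 by fold had no H3K27me1 peak in either genotype. They lay on chromosome 12 from 58298837 to 58299760 (924 bp, fold 2.37) and chromosome 7 from 51465713 to 51466412 (700 bp, fold 2.35), both covered in full by both replicates. The other two were on chromosome 9 from 34113678 to 34114854 (1177 bp, fold 2.35), covered by 96.5% and 55.8%, and on chromosome 5 from 26359307 to 26360690 (1384 bp, fold 2.34), covered by 54.2% and 66.8%. Of these 8 peaks, 2 lay in H3K9ac-poor windows, those on chromosomes 8 and 9, with 3 and 5 WT H3K9ac peaks in the window.

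The longest peaks rested on replicate 2. The longest was on chromosome 1 from 10216171 to 10219240 (3070 bp, fold 2.09), which replicate 2 covered in full and replicate 1 did not touch. The next, on chromosome 11 from 27822976 to 27825857 (2882 bp), was covered by 15.9% in replicate 2 and held 225 bp of H3K27me1 in *ddm1* but none in WT. The peak on chromosome 1 from 21315930 to 21318776 (2847 bp) was covered by 28.2% in replicate 2 and had no H3K27me1.

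The strongest WT H3K27me1 peaks inside the set had H3K27me1 in *ddm1* too. The highest WT H3K27me1 fold enrichments were 4.79 on chromosome 5 (peak from 12657730 to 12659274), 4.76 on chromosome 9 (57920035 to 57922066) and 4.46 on chromosome 4 (48525736 to 48526802). All 3 former H3K9me2 peaks were covered in full by replicate 2 and untouched by replicate 1, and all 3 still held H3K27me1 in *ddm1*, over 166, 365 and 344 bp, against 191, 278 and 458 bp in WT. The highest *ddm1* H3K27me1 fold enrichments were 4.51 on chromosome 10 (15343790 to 15344743), 4.29 on chromosome 9 (32981009 to 32982367) and 3.96 on the chromosome 9 peak already named. The first 2 had held H3K27me1 in WT as well, over 148 and 673 bp. At these sites, H3K27me1 and gained H3K27me3 of replicate 2 were thus called over the same former H3K9me2 peak.

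At the edge of the rule, the fewest shared bases were 5 bp on chromosome 12 (58741994 to 58743558), 12 bp on chromosome 10 (21146263 to 21147187) and 23 bp on chromosome 1 (62559232 to 62560119), all with replicate 2 alone. Just outside it, peaks lost without replacement lay 14 bp from a gained peak on chromosome 8 (16282453 to 16283207), 17 bp on chromosome 9 (42925771 to 42926914) and 27 bp on chromosome 6 (22440152 to 22441856). Few peaks were that close to the edge: 11 of the 811 shared under 50 bp, 17 of the 5850 lay within 50 bp of a gained peak, and the median shared length was 746 bp.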

How the data were processed

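Per the labels and the methods, the authors trimmed reads with Trimmomatic 0.38, aligned them with Bowtie2 to the M82 V1.0 assembly and called peaks with MACS3 at a stated q-value threshold of 0.05. The control used for calling was not given in the sources used here. The processing notes name Bowtie2 2.3.5 and SAMtools 1.9. The H3K9me2 and H3K27me3 lists have the broad layout, the others the narrow one. Each deposited peak has a fold enrichment (a ratio over the local background), −log10 p- and q-values and a whole-number score. In broad lists these are means over the region, and their −log10 q-values go down to 1.00, a q above the stated threshold. The lists carry no read totals, so depth is unknown and its part in list sizes was not tested.

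Overlaps were computed with numpy 2.4.6 and pandas 2.3.3 (Python 3.11.15), counting 1 bp as shared, and were checked on simulated peaks. A chromosome's length was set by the last base of any listed peak on it. Fates were assigned in the order *ddm1* H3K9me2, *ddm1* H3K9ac, gained H3K27me3, other H3K27me3, none. Shares have 95% Wilson intervals and differences 95% Newcombe intervals, which treat shares at the same peaks as independent. The peak set and the comparisons were chosen with earlier results of these data known. Regions were named by rank: 8 by WT H3K9me2 fold among peaks with 50% or more covered in both replicates, 3 by width, 3 each by WT and *ddm1* H3K27me1 fold, the 3 on each side of the 1 bp limit, and the gained peaks touching most peaks of the set. Alternatives changed the replicates used, the overlap, the q-value, the width, long peaks and the distance that counts as absent. Values at the peaks of replicate 1 by position, width and distance were added after seeing the data.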

Additional observations from a re-analysis of the deposited data

How the results depend on the processing

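No paired analysis was possible because only *ddm1* H3K27me3 had numbered replicates. Of 92 alternative values that kept both replicates, 58 stayed within the limit set for them. This limit was counting error for shares, differences and medians, and 1.5 times for counts. For the mean covered shares it was the SD between the 2 replicate means, 20.7 points, which is a wide limit. The difference in H3K27me1 share from WT to *ddm1* in the set kept its negative sign in every alternative. It was smallest, -3.86 points (-7.07 to -0.686), without H3K27me3 peaks over 10 kb. Without replicate 1 it was -5.18, and without replicate 2 it was -6.82 with an interval that included 0 (-14.6 to 0.834). It was -8.05 with 50% of the peak covered and -10.9 with each list limited to q values up to 0.01. At peaks lost without replacement the difference was 5.02 points at this q, from 2.46 to 3.45 without one replicate, and -0.137 with the *ddm1* H3K27me1 list cut to the WT number of peaks, a setting chosen, like every alternative of these differences, after seeing the data. This cut removes weaker *ddm1* peaks by construction.

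With gained H3K27me3 over at least 50% of the peak, the set had 559 peaks, 30 of them in both replicates, with a mean covered share of 77.7% in replicate 1, 74.2% in H3K9ac-poor windows and 4.65% with *ddm1* H3K27me1. Replicate 2 then touched 82.6% of the peaks chosen in replicate 1. With each list limited to q values up to 0.01, 165 peaks were left, 9 in both replicates, with a median width of 988 bp, a median WT fold of 2.33, 65.5% in H3K9ac-poor windows, and H3K27me1 at 21.2% in WT and 10.3% in *ddm1*. The replicates then touched 50.0% and 5.77% of each other's peaks, the second value being replicate 1 at peaks chosen in replicate 2. With only the *ddm1* H3K27me3 lists at this q these shares were 61.9% and 4.78%, with 26 peaks in both. With H3K9me2 peaks of at least 1000 bp, 355 were left, 50 in both replicates, with a median width of 1259 bp, a fold of 2.13, 67.3% in H3K9ac-poor windows, H3K27me1 at 16.1% in WT and 9.86% in *ddm1*, and 14.7% of replicate 2 peaks touched by replicate 1. Leaving out H3K27me3 peaks over 10 kb lowered the share of replicate 1 peaks touched by replicate 2 to 64.4%. With no *ddm1* H3K9ac or H3K9me2 within 1 kb the median fold was 2.13. The middle one of 3 equal parts of the chromosome held 35.9% of the set. H3K27me1 within 1 kb was found at 14.2% in WT and 8.26% in *ddm1*.

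Without replicate 2 the set had 132 peaks, and without replicate 1 it had 772. Their median widths were 962 and 927 bp, their median folds 2.17 and 2.10, their shares in H3K9ac-poor windows 64.4% and 72.0%, in the 25 to 75% stretch 56.8% and 56.2%, with WT H3K27me1 14.4% and 11.3%, and with *ddm1* H3K27me1 7.58% and 6.09%. The cause of these shifts was not tested.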
